A study of Mus musculus with 8 samples.

Results

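Hmgcs1, Mvk and Npc2 are 3 genes of cholesterol handling, and they were read from 5 spots of a 2-colour cDNA array: 2 spots of Hmgcs1, 1 of Mvk and 2 of Npc2. They are 3 of the 8653 genes, and 5 of the 12131 spots, that carry a gene name in this array set. The members were chosen by their values in earlier results on the same arrays, so their values are given here as a description, without a test. Brain RNA of 4 male mice aged 19 weeks, each labelled ADAR-/-/GluR-BR/R, was hybridised against 1 pool of wildtype brain RNA from males of the same age. Every mouse was run on 2 arrays with the dyes swapped, which gives 8 arrays. All mutant mice carry both alleles and the pool carries neither, so the contribution of each allele cannot be told apart. The labels list 4 mouse identities for the pool, while the labelling text states a different count of control animals. Where and when the allele is lost, and which cells of the brain were in the extract, is not given in the labels.

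Mammalian cells build cholesterol from acetyl-CoA. Hmgcs1, the cytosolic HMG-CoA synthase, acts early in the mevalonate pathway, and Mvk, mevalonate kinase, phosphorylates mevalonate further along it. The isoprenoids that follow feed the sterol branch, protein prenylation, dolichol and coenzyme Q. Cholesterol taken up in lipoproteins is freed in the lysosome, where Npc2, a small soluble carrier, hands it to the membrane protein Npc1 for export. The brain makes nearly all of its own cholesterol, much of it for myelin, and loss of Npc2 causes a form of Niemann-Pick disease type C.

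The stretches upstream of the 3 genes are shown as a description and were chosen with the values known. They are referred to again beside the values of Mvk and Nfyb, and their part in any value was not tested. They are RefSeq sequence of GRCm38.p6, written 5′ to 3′ on the strand of the gene. Capitals mark 3 motifs searched on both strands: TCACCCCAC, the core of a sterol regulatory element, CCAAT, the CCAAT box (ATTGG on the other strand), and GGGCGG, the GC box (CCGCCC on the other strand). Hmgcs1 is shown from chr13:119690101-119690350, the plus strand, which ends at the base before its start.
Hmgcs1: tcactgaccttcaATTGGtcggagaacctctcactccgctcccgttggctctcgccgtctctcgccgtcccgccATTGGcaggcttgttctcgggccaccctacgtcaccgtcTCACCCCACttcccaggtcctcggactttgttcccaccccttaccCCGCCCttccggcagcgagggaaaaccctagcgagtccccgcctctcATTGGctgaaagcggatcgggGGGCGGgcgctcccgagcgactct
Mvk is shown from chr5:114444074-114444263, the plus strand. These 190 bases are the whole interval between the gene models of Mvk and Mmab, which is read the other way. Mmab is a mitochondrial enzyme of vitamin B12 metabolism.
Mvk: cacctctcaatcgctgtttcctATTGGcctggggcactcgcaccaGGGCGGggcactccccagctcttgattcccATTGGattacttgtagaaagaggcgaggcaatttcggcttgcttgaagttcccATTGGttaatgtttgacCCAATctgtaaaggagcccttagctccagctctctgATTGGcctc
Npc2 is shown from chr12:84773113-84773229, the minus strand. These 117 bases lie between its start and the neighbouring gene model Isca2.
Npc2: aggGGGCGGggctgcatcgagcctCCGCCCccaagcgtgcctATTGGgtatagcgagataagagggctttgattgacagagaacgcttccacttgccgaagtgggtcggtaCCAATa

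Within 250 bases upstream, the sterol element core occurred 1 time before Hmgcs1, centred 133 bases from its start, and 0 times before Mvk, Mmab and Npc2. These letters were found in 163 of 32851 RefSeq promoter windows of that length, or 0.496%. The CCAAT box occurred 3 times before Hmgcs1, 5 before Mvk and 2 before Npc2, and 33.8% of all windows held at least 1. The 5 before Mvk lie in the interval shared with Mmab and are also the 5 counted before Mmab. The GC box occurred 2 times before Hmgcs1, 2 before Mvk and 3 before Npc2, against 32.7% of all windows with at least 1. Of these GC boxes, 1 of Mvk (213 bases upstream) and 1 of Npc2 (170 bases upstream) lie beyond the stretches printed. The motifs do not overlap in letters, and a match describes these windows only. Only the exact letters TCACCCCAC were searched for, so a count of 0 does not show that a sterol element is absent. For the CCAAT and GC boxes, how many windows held as many as these genes was not counted.

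Values below are log2 ratios after subtraction of each array's median. Each mouse has a mean ratio, the average of its 2 arrays, and a swap component, the value on the array with Cy5-labelled mutant less that on its dye-swapped partner, divided by 2. The labels do not say which channel is the numerator. If every ratio is Cy5 over Cy3, the swap component is mutant over pool and the mean ratio is a dye effect. If all ratios run one way between mutant and pool, the mean ratio is that contrast, of unknown sign, and the swap component is the dye effect. No value here is therefore called higher or lower in the mutant. In whole brain, fewer cells of a type and less RNA per cell cannot be told apart.

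The arrays gave 20211 to 20559 values each, of 20794 spots. Depth in counts does not exist for these arrays, and the 4 mice limit the precision. Centred values spread more widely with the mutant in Cy3 (SD 1.04 to 1.32) than with the mutant in Cy5 (0.812 to 0.852). For a check of weak spots, an offset was removed per array, set from its highest value, a code for ratios of 100000. Between 4.76% and 8.73% of an array's values then lay within 0.001 of the log2 of a ratio of whole numbers up to 10. Such a match can mark weak spots, and the share that matches by chance was not tested. Adarb1, the gene of ADAR2, had 3 spots, with swap components of -1.23 ± 0.352, -1.33 ± 0.696 and -0.099 ± 0.195 and mean ratios of 0.70, 0.26 and 0.12 (SD, n = 4 mice). Where its probes lie relative to the deleted part is not given in the labels. The tissue could not be checked from ratios, which hold no levels.

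Hmgcs1 lay above the array median on most arrays at both spots. At spot 17498, the arrays with the mutant in Cy5 gave 0.53, -0.29, 0.53 and 0.68 in mice 1 to 4, and those with the mutant in Cy3 gave 1.48, 1.54, 0.27 and 1.62. Values were positive on 7 of 8 arrays, mouse 2 was low in the first orientation and mouse 3 in the second, and the orientations overlapped. Its mean ratio was 0.80 ± 0.344, or 1.74-fold, and its swap component -0.43 ± 0.428 (SD, n = 4), with mouse 3 at 0.13 and the other mice between -0.92 and -0.47. Without mouse 2 the swap component was -0.27.

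At spot 19447, the mutant-in-Cy5 arrays gave 0.41, -0.44, 0.38 and 0.59, and the mutant-in-Cy3 arrays gave 1.43, 1.82, 1.45 and 1.74. All 4 arrays of the second orientation lay above all 4 of the first, and 7 of 8 values were positive. The mean ratio was 0.92 ± 0.193, or 1.90-fold, and the swap component -0.69 ± 0.296 (SD, n = 4), negative in every mouse. The value of mouse 1 with the mutant in Cy5 matches a ratio of small whole numbers.

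The 2 Hmgcs1 spots differed less than the spots of most genes with 2 spots. Their root mean square difference over the 8 arrays was 0.44, and 9.07% of the 1698 genes with 2 spots had a smaller one (median of all, 0.99). Spots of other genes lay closer still, with Ptgds at 0.11 from spot 19447 and Ccpg1 at 0.18 from spot 17498. The widest gap between the Hmgcs1 spots, 1.18, was on the mutant-in-Cy3 array of mouse 3, where spot 17498 alone was low. The neighbouring runs of 48 spots differed too: around spot 17498 the run median was between 0.079 and 0.84 on the 8 arrays, and its mean ratio was 0.31 once each run was centred. The part of array position in the value was not tested.

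**Figure D1:**
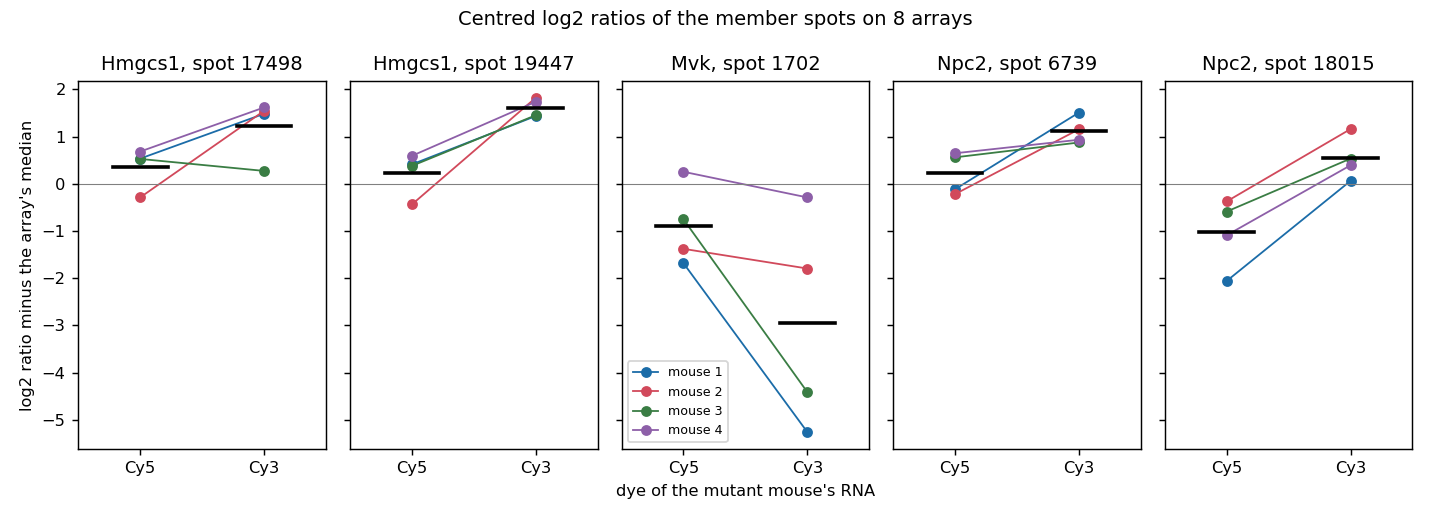
Log2 ratio minus the array median (vertical axis) for the 5 spots of Hmgcs1, Mvk and Npc2, with the dye of the mutant RNA on the horizontal axis. Points are single arrays, lines join the 2 arrays of a mouse and black bars are means of 4 arrays. Hmgcs1 and Npc2 have higher means with the mutant in Cy3, while Mvk reaches -5.26 and -4.41 there in mice 1 and 3.

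Mvk lay on the other side of the array median, with the largest SD between mice of the 5 spots. The mutant-in-Cy5 arrays gave -1.68, -1.38, -0.75 and 0.25 in mice 1 to 4, and the mutant-in-Cy3 arrays gave -5.26, -1.79, -4.41 and -0.29. Mice 1 and 3 were far below the others in the second orientation, mouse 4 was near the median in both, and the orientations overlapped. The mean ratio was -1.91 ± 1.48, or 0.266-fold, and the swap component 1.02 ± 0.906 (SD, n = 4). The 4 mouse means were -3.47, -1.59, -2.58 and -0.017, so the SD between mice was nearly as large as the mean. Without mouse 4 the mean ratio was -2.55, and without mouse 1 it was -1.39. The value of mouse 3 with the mutant in Cy5 matches a ratio of small whole numbers, and with all such values left out the mean ratio was -2.37. Mouse 3 then rested on its mutant-in-Cy3 array alone, at -4.41, so the dyes were no longer balanced. Mvk has 1 spot here, so no second probe bears on it.

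Mvk ranked 128 from the lowest of 20595 spots in mean ratio, and its swap component was at percentile 99.5 of 18797 spots. The 34 spots with a mean ratio within 0.1 of Mvk had a median swap component of 0.098, and their 10th and 90th percentiles were -0.50 and 0.85. Mmab, which shares the 190-base interval printed for Mvk, also has 1 spot and did not follow it. Its spot gave 0.55, 0.29, -0.022 and 0.74 with the mutant in Cy5 and 0.64, 0.54, 0.31 and 0.88 with the mutant in Cy3. Its mean ratio was 0.49 ± 0.152 (SE, n = 4, limma adjusted p = 0.059), positive in 4 of 4 mice.

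Npc2 had a negative swap component at both spots, and its spots disagreed in mean ratio. At spot 6739, the mutant-in-Cy5 arrays gave -0.12, -0.22, 0.56 and 0.65, and the mutant-in-Cy3 arrays gave 1.51, 1.15, 0.87 and 0.93. The orientations did not overlap, and mice 1 and 2 were low in the first and high in the second. The mean ratio was 0.67 ± 0.139, or 1.59-fold, and the swap component -0.45 ± 0.349 (SD, n = 4).

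At spot 18015, the mutant-in-Cy5 arrays gave -2.06, -0.37, -0.59 and -1.09, all below the median, and the mutant-in-Cy3 arrays gave 0.061, 1.16, 0.53 and 0.39, all above it. The mean ratio was -0.25 ± 0.586 and the swap component -0.78 ± 0.207 (SD, n = 4), between -1.06 and -0.56 in the 4 mice. Without mouse 1 the mean ratio was 0.0049, and without mouse 2 it was -0.46. The swap component was at percentile 1.74, while the 2045 spots of like mean ratio had a median swap of 0.11. With runs of 48 spots centred it was -0.54.

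Spot 18015 was higher than spot 6739 on 1 of 8 arrays. Their root mean square difference was 1.15, and 61.2% of genes with 2 spots had a smaller one. The gap was up to 1.94. The files hold no probe sequence for either spot, so which part of the transcript each reads was not analysed here.

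**Figure D2:**
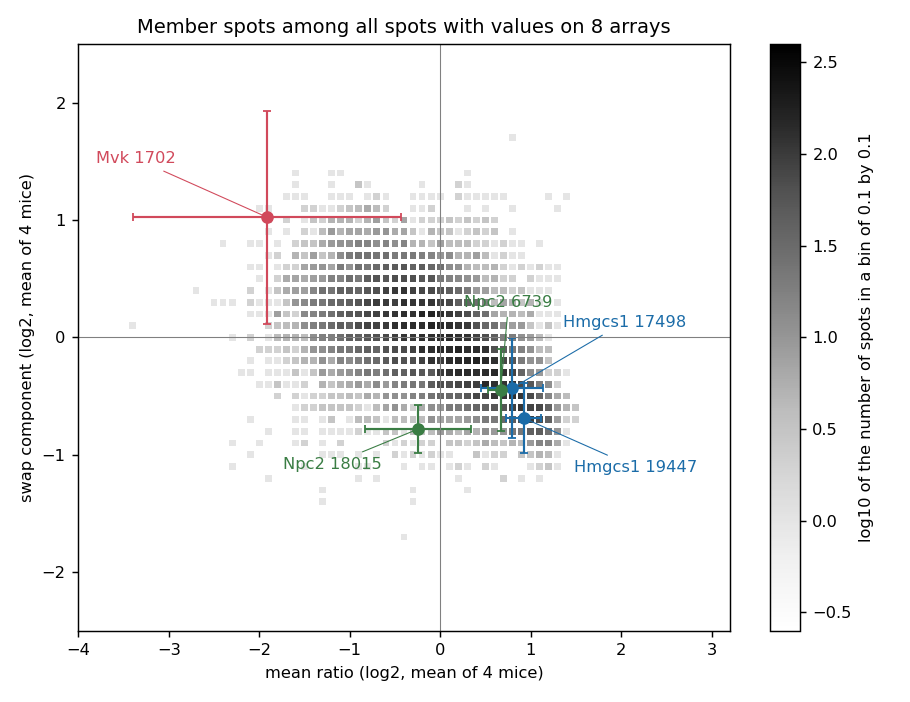
Mean ratio (horizontal axis, log2) against swap component (vertical axis, log2), each the mean of 4 mice. Grey squares are bins of 0.1 by 0.1 shaded by the log10 number of spots, coloured points are the 5 member spots and bars are SD over mice. Both Hmgcs1 spots and Npc2 spot 6739 lie at the lower right, Mvk at the upper left at -1.91 and 1.02, and Npc2 spot 18015 below the centre at -0.78.

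Over all spots, limma called 30.4% in the mean ratio and 7.84% in the swap component at an adjusted p under 0.05. Of the 5 member spots, 4 passed in the first and 2 in the second, counts that the choice of members used and from which nothing is read. Spots with a mean ratio like that of Hmgcs1 also had negative swap components. The 1220 spots within 0.1 of spot 17498 had a median of -0.44 and the 955 near spot 19447 a median of -0.52, against -0.43 and -0.69 at the Hmgcs1 spots themselves. For Npc2 spot 6739 the 1394 like spots had a median of -0.35, against -0.45.

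The spots nearest to each member over the 8 arrays, among 11095 spots of other named genes, were taken by root mean square difference. Nearest to Hmgcs1 spot 19447 were Ptgds, a prostaglandin D synthase (0.11), Sf3b2 (0.17) and Ly6e (0.18). Nearest to spot 17498 were Ccpg1 (0.18), Fam181b (0.20) and Acp1 (0.24). Npc2 spot 6739 was nearest to Ubqln1 (0.13), Man1a2 (0.15) and Tax1bp1 (0.17), and spot 18015 to Ppp2r5e (0.35), Fam189a1 (0.44) and Eipr1 (0.48). Mvk had no near neighbour on that scale: Dnmt3l was at 0.87, Nek7 at 0.91 and Stx8 at 0.99.

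Beside Hmgcs1 and Mvk, no measured gene of cholesterol synthesis passed the test in the mean ratio in the main fit, although some passed under other settings. The main fit used centred arrays, all 4 mice, both dye orientations and eBayes without trend or robust moderation. Of the 8605 genes tested, 17.3% were called positive and 11.5% negative in the mean ratio, and of 8107 in the swap component, 1.37% positive and 7.94% negative. The mevalonate list had 6 of 11 genes measured, with 1 called positive (Hmgcs1) and 1 negative (Mvk), both of which the choice of members used, and the sterol branch had 9 of 15 with 0 called. The mevalonate list had 1 positive and 0 negative calls without mouse 1, 2 or 3 or with small-number ratios left out. With runs of 48 spots centred it had 3 positive and 0 negative, with values as deposited 1 and 2, and with trend and robust moderation 2 and 1. The sterol branch had 1 call with the mutant in Cy3 alone. Hmgcs1 and Mvk aside, limma called 0 of 13 synthesis genes in the mean ratio of the main fit, and 2 had an unadjusted p under 0.05. In the swap component 1 of 11 was called, and it was Msmo1, a demethylating oxidase of the sterol branch, at -0.92 ± 0.147 (SE, n = 4, adjusted p = 0.027), negative in 4 of 4 mice.

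Msmo1 had mouse values of -0.67, -0.80, -1.38 and -0.82 in the swap component, and a mean ratio of 0.42 ± 0.254 (adjusted p = 0.252). Next to Mvk in the pathway, Pmvk, which adds the second phosphate, had a mean ratio of 0.35 ± 0.151, and Mvd, the decarboxylase after it, -0.35 ± 0.142 (SE, n = 4). Neither passed the test in the main fit, and as deposited Mvd was at -0.51 (adjusted p = 0.032). Fdps, which makes farnesyl diphosphate, and Fdft1, which joins 2 of them to squalene, had mice 1 and 2 above mice 3 and 4. Fdps was at 0.56 and 0.58 in the former and -0.23 and -0.47 in the latter, and Fdft1 at 0.0085 and 0.0095 against -0.78 and -1.06. Genes of other lists, such as Insig2 and the astrocyte marker Mlc1, also had mice 1 and 2 above mice 3 and 4. That order is therefore not particular to synthesis genes. Sqle, squalene epoxidase, was at 0.14 ± 0.256 (adjusted p = 0.711). Pmvk, Mvd, Fdps, Fdft1, Insig2 and Mlc1 were named after their values were seen. Of the 15 synthesis genes, 13 rest on 1 spot.

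**Figure D3:**
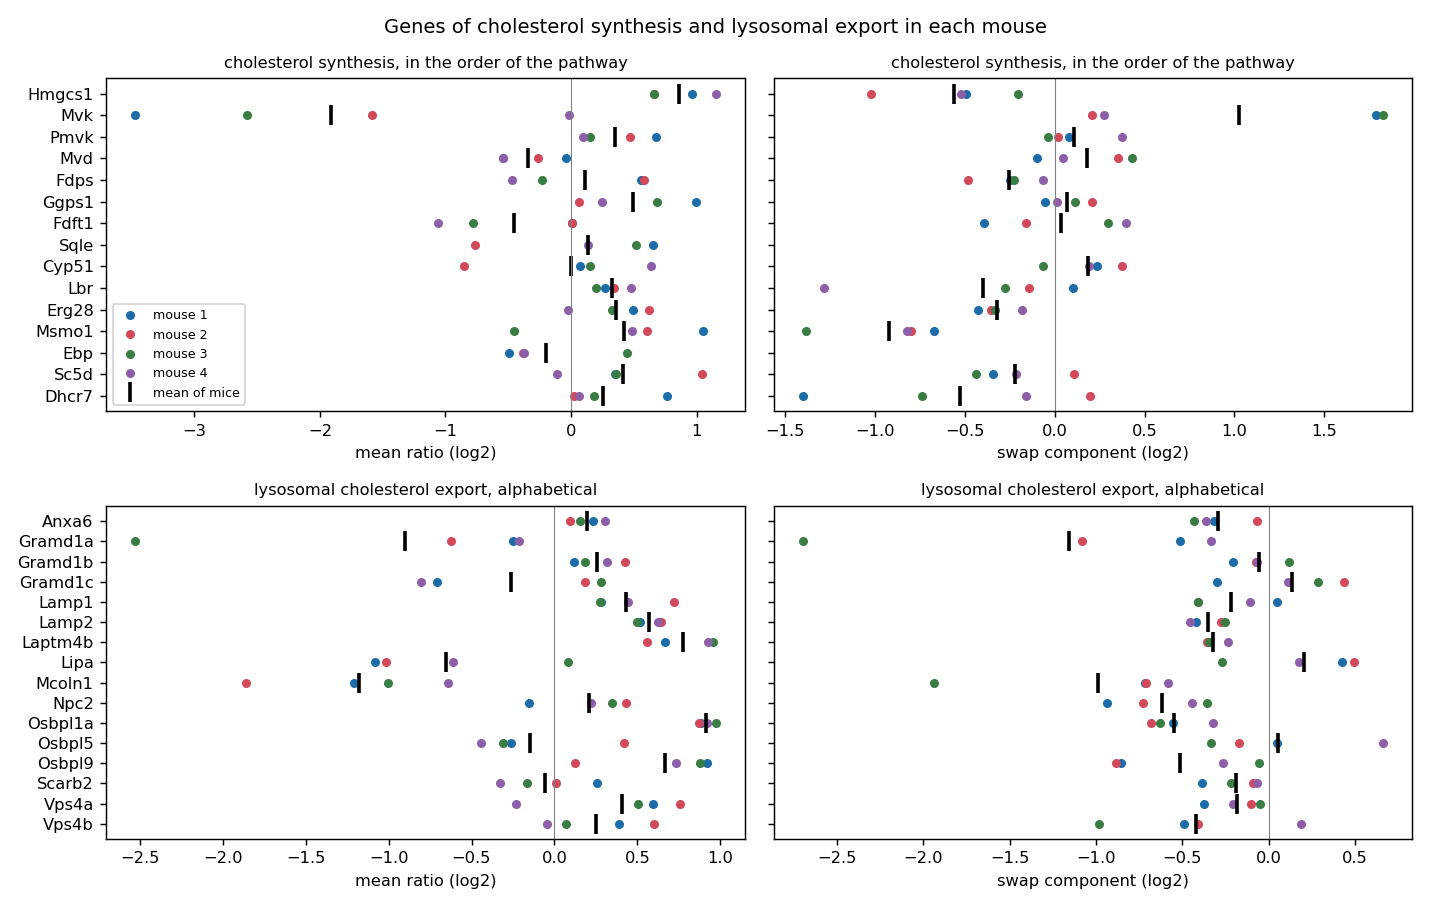
Gene values (spots averaged) in each mouse, with mean ratios in the left panels and swap components in the right panels (log2), for 15 genes of cholesterol synthesis in pathway order (top) and 16 genes of lysosomal export (bottom). Coloured points are mice and black ticks their means, and the horizontal scales differ between panels. Mvk has the lowest mean of the top left panel and the widest spread, and Ebp and Sqle have no swap component.

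Lysosomal export genes were called positive 4 times and negative 1 time among 16 of 20 measured, or 31.25% against 28.8% of all genes. Osbpl1a, a sterol-binding protein of late endosomes, had a mean ratio of 0.91 ± 0.114 (SE, n = 4, adjusted p = 0.0078), and its swap component was -0.55 (adjusted p = 0.039). Laptm4b and Lamp2, lysosomal membrane proteins, were at 0.78 ± 0.132 (adjusted p = 0.012) and 0.57 ± 0.116 (adjusted p = 0.018), and Osbpl9 at 0.66 (adjusted p = 0.038). Mcoln1, the lysosomal cation channel, was the negative call, at -1.18 ± 0.216 (adjusted p = 0.014), and was at -2.17 with the mutant in Cy5 alone and -0.19 with the mutant in Cy3 alone. Lipa, the acid lipase that frees lysosomal cholesterol, was at -0.66 ± 0.223 (adjusted p = 0.075). In the swap component, Osbpl1a and Npc2 made up the 2 negative calls, of which Npc2 was used by the choice of members. Without Npc2, 1 of 15 was called in that quantity (6.67%), against 9.31% of all genes. In the mean ratio with values as deposited the export list held 2 positive calls and 1 negative, and without mouse 3 it held 1 and 2.

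Lysosomal hydrolases and their cofactors were called positive 9 times and negative 2 times among 28 of 40 measured (39.3%). In the swap component 6 of 25 were called (24%), all negative. Over all genes these shares were 28.8% and 9.31%. Psap, the precursor of the saposins, had a mean ratio of 1.03 ± 0.120 (SE, n = 4, adjusted p = 0.0077), and Gm2a, a ganglioside activator, 0.68 (adjusted p = 0.031). Tpp1, a peptidase, and the cathepsins Ctsb and Ctss were at 0.64, 0.64 and 0.54. Ctsh and Ctsk, also cathepsins, were negative at -1.07 ± 0.127 (adjusted p = 0.0077) and -0.61 (adjusted p = 0.048). With runs of 48 spots centred Ctsh was at -0.34 (adjusted p = 0.126). With values as deposited the list held 4 positive and 5 negative calls. Without mouse 3 it held 1 and 2, and without mouse 2 it held 1 and 1.

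The list of lipoprotein uptake, efflux, storage and turnover had 8 positive and 0 negative calls among 24 of 40 measured, or 33.3% against 28.8% of all genes. App and Prnp, which the name of the list does not describe, were among these calls. Clu and Apoe, apolipoproteins made by astrocytes, were at 1.03 ± 0.116 and 0.98 ± 0.127 (SE, n = 4, adjusted p = 0.0077 and 0.0078), and App and Prnp, membrane glycoproteins, at 1.23 ± 0.122 and 1.11 ± 0.176. In the swap component 4 of 23 were called (17.4%, against 9.31% of all genes). App, Clu and Apoe were negative there, at -0.77, -0.72 and -0.63 (adjusted p = 0.027, 0.027 and 0.031). Apoa1 was the single positive call, at 0.59 ± 0.137 (adjusted p = 0.049). It was lost as deposited (adjusted p = 0.052), with runs centred (adjusted p = 0.052) and with trend and robust moderation (adjusted p = 0.104), under which 0 of all genes were called positive in place of 111. As deposited, the mean-ratio calls were 6 positive and 2 negative. Sterol sensing and its control had 2 positive and 1 negative among 15 of 27 measured, or 20% against the same 28.8%. Nfyb, a subunit of the factor that binds the CCAAT box shown in the sequences above, was at 0.83 ± 0.128 (adjusted p = 0.0099), and Ubxn4 at 0.62 (adjusted p = 0.035). Nr1h3, the oxysterol receptor LXR alpha, was at -0.99 ± 0.189 (adjusted p = 0.015). As deposited this list had 1 positive and 2 negative calls. The call of Nr1h3 was lost without mouse 3 (-0.88, adjusted p = 0.059), without mouse 4 (-0.93, adjusted p = 0.059) and with runs centred (-0.47, adjusted p = 0.129), where the list had 3 positive and 0 negative calls. Of 8 isoprenoid users 1 was called (12.5%), Icmt, which methylates prenylated proteins, at 0.67 ± 0.141 (adjusted p = 0.021). Of 5 genes of ketone body metabolism and its neighbours limma called 0, and 3 had an unadjusted p under 0.05.

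Over all 8 lists, 108 genes other than the members were measured in the mean ratio. Of these 24 were called positive and 4 negative, or 25.9% against 28.8% of all genes. Their median was 0.23 against -0.027 over all genes. In the swap component 1 of 102 was called positive and 11 negative, or 11.8% against 9.31%, with a median of -0.19 against -0.077. With values as deposited, without centring, the positive share of all called genes was 39.4% in place of 60.2%, and the lists (members included) had 14 positive and 12 negative calls in place of 25 and 5. The mean-ratio count of 30 was 16 without mouse 2 and 14 without mouse 3. On the mutant-in-Cy5 arrays alone limma called 0 list genes, with 27 at an unadjusted p under 0.05. The swap count of 13 was 0 when any 1 mouse was left out, with 25 to 38 at an unadjusted p under 0.05. Of the 20 mean-ratio calls among the genes named here other than the members, 9 passed in every fit that left out a mouse: Apoe, App, Clu, Ctsh, Mcoln1, Nfyb, Osbpl1a, Prnp and Psap. Ctss passed in none of them, and the calls of Ctss, Icmt, Lamp2, Osbpl9 and Ubxn4 were also lost with values as deposited. With runs centred the calls of Ctsh, Ctss, Laptm4b, Nr1h3 and Osbpl9 were lost.

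Markers of brain cell types were called in the same 2 quantities. Neuron markers had 10 positive and 0 negative calls among 15 in the mean ratio (median 0.82) and 7 negative among 14 in the swap component (median -0.53). In the mean ratio, oligodendrocyte markers had 5 positive among 11 (median 0.59) and astrocyte markers 5 among 12 (median 0.33). Both had 0 negative in that quantity. Microglia markers had 1 positive and 3 negative among 9 there, endothelial markers 2 and 1 among 8, and blood cell markers 1 and 3 among 5. In the swap component 4 of 11 oligodendrocyte, 2 of 12 astrocyte and 1 of 5 blood cell markers were called, all negative. Of 9 microglia and 6 endothelial markers 0 were called in it, with 2 of each at an unadjusted p under 0.05. Over all genes, 28.8% were called in the mean ratio and 9.31% in the swap component. The part of cell makeup in the values of Hmgcs1, Mvk, Npc2 and the pathway lists was not tested.

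**Figure D4:**
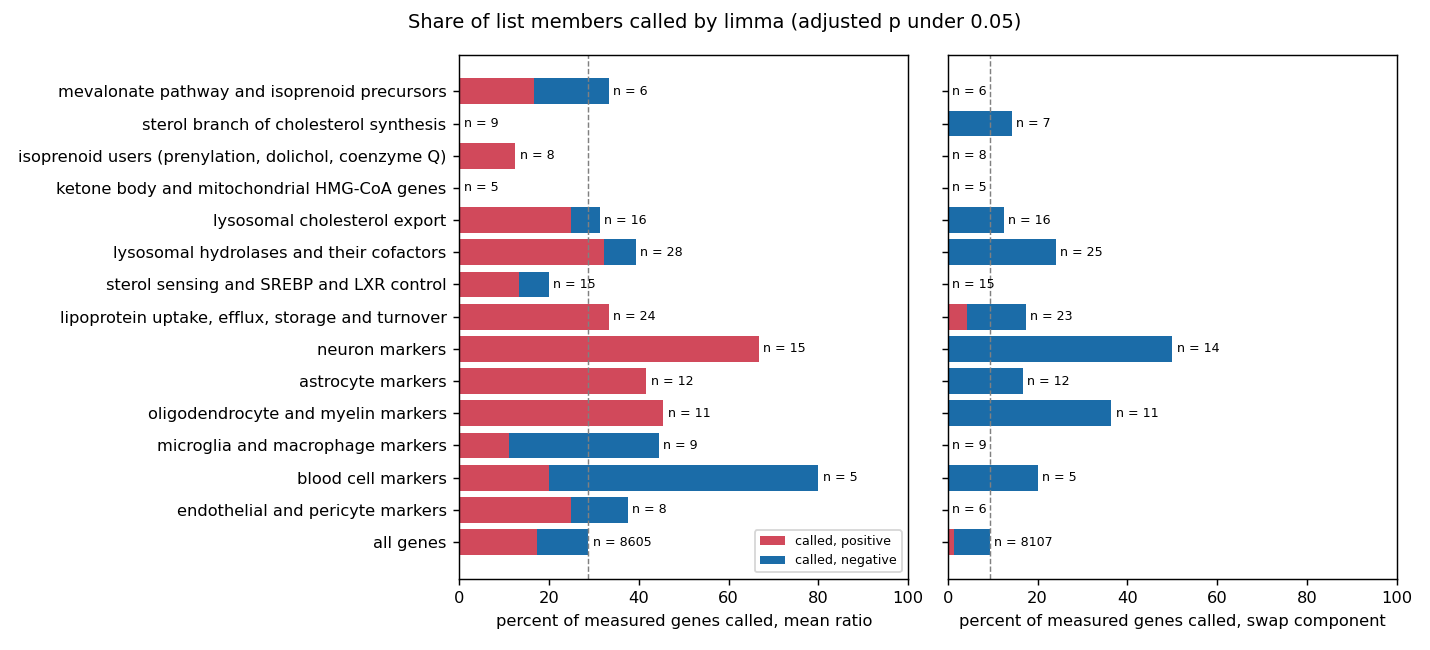
Percent of the measured genes of each list called by limma at an adjusted p under 0.05 (horizontal axis), in the mean ratio (left) and the swap component (right), with positive calls in red and negative in blue. The number of genes measured stands beside each bar and the dashed line is the share of all genes, 28.8% and 9.31%. The sterol branch has no bar on the left, and neuron markers have long bars in both panels.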

How the data were processed

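The values are log2 ratios of the channels of a 2-colour cDNA array, deposited by the authors. The log2 scale was read from the values. Labelling followed an indirect dye protocol, per the labels' protocols. The scanner and any normalisation or background step: not given in the sources used here. A code for ratios of 100000 was treated as missing. A value row was named by the platform annotation 11 rows before it, for annotation numbers up to 20000. The correlation of the first 2 spots of a gene over 2543 genes was 0.255 at that shift, and -0.010, 0.023 and 0.040 at shifts of 0, 10 and 12. Names at spots therefore rest on this shift.

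Array medians were subtracted. Each mouse's mean ratio and swap component were tested against 0 by an intercept-only model (lmFit, then eBayes, in limma 3.58.1 under R 4.3.3), adjusted by Benjamini-Hochberg over all features with a threshold of 0.05, over 20595 and 18797 spots and over 8605 and 8107 genes with spots averaged. A swap component needed all 8 arrays. The pool is 1 control sample, so its own spread is left out. Alternatives were deposited values, each mouse left out, small-number ratios as missing, runs of spots centred, 1 dye orientation, other naming, complete values and another moderation.

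Members and gene lists were chosen with earlier results of these data known. Named genes are every spot of the 3 members, up to 4 called genes per list, direction and quantity by size, a fixed set of pathway genes where measured (Sqle, Lipa, Apoe and Mmab here; the others of that set are not reported here), and the 3 nearest spots to each member spot. Sequences are RefSeq promoter windows matched by symbol for 3 of 3 members.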

Additional observations from a re-analysis of the deposited data

Results flagged for a closer look

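Each group of 4 values of the member spots was described by the gap of its highest or lowest value over its range, and 3 of 20 groups passed Dixon's 95% critical value. Chance marks about 1 in 20 independent groups, but these groups share arrays and the members were chosen by their values, so nothing is read from the count. At Hmgcs1 spot 17498 the mutant-in-Cy5 array of mouse 2, at -0.287, lay apart from the other mice at 0.53 to 0.68. At the same spot the mutant-in-Cy3 array of mouse 3, at 0.272, lay apart from the others at 1.48 to 1.62. At Hmgcs1 spot 19447 the swap component of mouse 2, at -1.13, lay apart from the others at -0.57 to -0.51.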

How the results depend on the processing

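The member spots kept their sign when any mouse was left out, except the mean ratio of Npc2 spot 18015. Their values otherwise depended on the dye orientation. With the mutant in Cy5 alone the mean ratio was 0.36 at Hmgcs1 spot 17498, 0.24 at spot 19447, 0.22 at Npc2 spot 6739, -1.03 at spot 18015 and -0.89 at Mvk. With the mutant in Cy3 alone these were 1.23, 1.61, 1.12, 0.54 and -2.94. As deposited, Npc2 spot 6739 was at 0.51. With runs of 48 spots centred, the mean ratio of Hmgcs1 spot 17498 was 0.31 and the swap component of Npc2 spot 18015 was -0.54. With names read at the same spot number, other spots take the members' names: the mean ratio was 0.022 at Hmgcs1 spot 17498, -0.14 at spot 19447, 0.49 at Npc2 spot 6739 and -0.51 at Mvk, and the swap component was 0.017 at Hmgcs1 spot 19447, 0.24 at Npc2 spot 6739 and -0.029 at spot 18015. Tpp1 had a mean ratio of -0.016 with the mutant in Cy5 alone. The cause of these changes was not tested.

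Counts of calls moved more. Without 1 mouse in turn, mean-ratio calls were 2483 to 3931 of spots (6256 with all mice), 1110 to 1723 of genes (2477) and 14 to 20 of cholesterol list genes (30), and swap calls were 0 to 0 in each (4106 to 5417 spots at an unadjusted p under 0.05). With the mutant in Cy5 alone limma called 0 spots, 0 genes and 0 list genes in the mean ratio (4748, 2007 and 27 at an unadjusted p under 0.05). In the swap component, values as deposited gave 0 spots (5785 at an unadjusted p under 0.05), 286 genes and 2 list genes, against 1473, 755 and 13. Runs centred gave 0 (4958), 396 and 6, names at the same spot number 460 genes and 7 list genes, and eBayes with trend and robust 2322 spots. Fewer mice leave fewer residual degrees of freedom, and what moved the counts was not tested. The deposited ratios hold no signal over background, so weak spots could not be told from strong ones.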
